A study of Mus musculus with 12 samples.

Results

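The genes described here are 48 genes of mitosis and the G2/M transition, chosen by symbol from a table of 23420 genes: mitotic kinases, cyclins A and B, checkpoint and anaphase genes, kinesins, and genes of the spindle, the kinetochore and condensin. All 48 were in the table and above 0 in every library, and 47 passed the filter on low values that 4542 of all genes passed. The exception was Nek2, a centrosome kinase, which lay between 1.3 and 9.3. The data are 12 libraries from mouse fetal liver, 3 in each of 4 groups: PIR+ wild type (wt), PIR- wt, PIR+ KO and PIR- KO. PIR is the paired immunoglobulin-like receptor, encoded by Lilrb3 and the Pira genes. Per the labels, all 4 groups are lineage-negative c-Kit+ cells sorted by flow cytometry, 100 cells to a tube, and each tube received the same amount of ERCC spike-in RNA. The labels name neither the gene lost in the 6 KO libraries nor the strain or the number of animals. No check of the targeted gene was therefore made, and p-values reflect only the variation among these libraries, which may be technical.

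Groups follow the titles and the genotype field, but in 6 of the 12 libraries the markers field carries the other PIR sign. The source name, embryonic stage E12.5 or E14.5, goes with the markers field in every library, so stage and that field cannot be told apart. The series title calls the PIR- subset IL7R-, whereas the markers field gives IL7Ra+ in all 12. The message of Il7r was present in both subsets, at 9.7 to 20.3 in PIR+ and 16.1 to 24.4 in PIR- libraries. Surface protein was not measured in these libraries. Lilrb3 followed the titles, at 6.2 to 14.3 in the 6 PIR+ libraries and listed at 0 in the 6 PIR- libraries, and Kit was 18.6 to 56.3 over all libraries. Library sums were 155374 to 284648, and 5 libraries were rich in globin messages, with Hba-a1 above 100: PIR+ wt replicate 3, PIR- wt replicates 2 and 3, PIR+ KO replicate 1 and PIR- KO replicate 1. The counts of calls are also given without these libraries, and with only the 6 libraries whose labels agree on PIR (called the label-matched libraries: PIR+ wt replicates 1 and 2, PIR- wt replicate 1, PIR+ KO replicate 3 and PIR- KO replicates 2 and 3). In the label-matched set PIR- wt and PIR+ KO are 1 library each, assumed to vary like the others, and every PIR+ library is named E12.5 and every PIR- library E14.5, so subset and named stage cannot be told apart there. The 2 choices of libraries differ only in PIR+ KO replicate 2, which the first keeps. For wild type both hold PIR+ wt replicates 1 and 2 and PIR- wt replicate 1, so they are not separate checks of a wild-type difference. Values are molecule counts normalized by the authors, and because their sums differ between subsets, each comparison is given on this deposited scale and a second time with each library divided by its median ratio to a common reference (median-of-ratios scaling, called scaled). Fold changes are differences of log2(value + 1) ± SE, and a gene is called where limma's adjusted p over all genes tested is under 0.05.

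A cell enters mitosis when Cdk1 bound to cyclin A or B becomes active, helped by the polo-like and Aurora kinases. Chromosomes are compacted by condensin and topoisomerase II and attached at their kinetochores to a spindle shaped by kinesins. The spindle checkpoint holds back the anaphase-promoting complex until all chromosomes are attached, and cytokinesis then divides the cell. Most of these genes are transcribed late in the cell cycle, and many of their promoters carry a cell cycle genes homology region (CHR, the letters TTTGAA or TTTAAA) read by the DREAM and MuvB complexes, often with CCAAT boxes bound by NF-Y. Fetal liver progenitors are known as actively dividing cells, so these messages track dividing cells in a sample.

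The letters of these promoters were looked up in the RefSeq promoter table (build GRCm38.p6), in windows of 300 bases that run from 250 before to 50 after the start, on both strands, with overlaps between motifs allowed. The table held 45 promoters of 42 of the genes. TTTGAA was in 34 of the 45 (75.6%) against 17.9% of all 32851 promoters. TTTAAA was in 9 (20%) against 13.2%. CCAAT was in 35 (77.8%) against 37.4%, and CCAAT together with one of the CHR letters was in 32 (71.1%) against 10.7%. Among promoters that held TTTGAA, it lay within 50 bases of the start in 30 of 34 of these genes' promoters (88.2%) and in 27.6% of all. TTTGAA was in 76.7% of the 30 promoters of genes called lower in PIR+ wild type after scaling (described below) and in 78.6% of the 14 promoters of tested genes not called. TTTAAA was in 26.7% of the 30 and 7.14% of the 14, and either form in 86.7% and 78.6%, with no test made. These are matches of letters, not measured binding.

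The 250 bases before the start are shown for 4 genes, with the CHR letters, the CCAAT box and their reverse complements in capitals: Top2a (chr11:99024190-99024439, minus strand) and Mki67 (chr7:135716380-135716629, minus strand), which carry the common CHR form, Plk1 (chr7:122159185-122159434, plus strand), which carries the rarer form, and Kif23 (chr9:61946800-61947049, minus strand), whose levels went the other way from most of the genes.
Top2a: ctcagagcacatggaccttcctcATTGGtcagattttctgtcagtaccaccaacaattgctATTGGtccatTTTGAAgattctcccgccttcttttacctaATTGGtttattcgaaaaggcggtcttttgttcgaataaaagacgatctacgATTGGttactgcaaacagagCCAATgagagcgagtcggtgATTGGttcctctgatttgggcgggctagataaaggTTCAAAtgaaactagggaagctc
Mki67: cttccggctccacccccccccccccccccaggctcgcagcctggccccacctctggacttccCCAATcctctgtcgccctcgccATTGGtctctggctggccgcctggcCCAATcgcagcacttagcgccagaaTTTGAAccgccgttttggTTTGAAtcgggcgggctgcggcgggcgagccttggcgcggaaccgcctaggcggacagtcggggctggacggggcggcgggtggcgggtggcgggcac
Plk1: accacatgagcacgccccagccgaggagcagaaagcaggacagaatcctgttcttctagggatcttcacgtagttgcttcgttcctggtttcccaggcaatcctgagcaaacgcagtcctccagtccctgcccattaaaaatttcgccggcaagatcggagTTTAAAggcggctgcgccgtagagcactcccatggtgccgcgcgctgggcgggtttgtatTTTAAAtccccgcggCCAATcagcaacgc
Kif23: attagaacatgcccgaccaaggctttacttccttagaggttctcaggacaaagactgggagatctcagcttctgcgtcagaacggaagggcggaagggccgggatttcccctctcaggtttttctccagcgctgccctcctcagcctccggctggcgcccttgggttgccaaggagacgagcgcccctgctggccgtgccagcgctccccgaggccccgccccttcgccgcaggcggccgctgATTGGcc
The Top2a stretch holds 6 CCAAT boxes and 2 TTTGAA letters. The Mki67 stretch holds 3 CCAAT boxes and 2 TTTGAA letters, and the Plk1 stretch holds 2 TTTAAA letters and 1 CCAAT box. Kif23 shows 1 CCAAT box and no CHR letters upstream of its start, but its promoter holds TTTGAA just after the start, at position 3. Plk1 carries TTTGAA as well as the rarer form, at position 31 after its start. These letters lie in the window counted above and outside the stretches shown, so Kif23 is not a promoter without CHR letters.

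Together the 48 genes took a smaller share of the RNA in PIR+ than in PIR- cells, in both genotypes. They made up 0.553%, 0.523% and 0.474% of the library sum in PIR+ wt replicates 1 to 3, and 0.860%, 0.887% and 0.949% in PIR- wt. In the KO the shares were 0.613%, 0.615% and 0.554% in PIR+ and 0.791%, 0.757% and 0.920% in PIR-. PIR+ and PIR- libraries did not overlap in either genotype. The means were 0.517 ± 0.0399% and 0.899 ± 0.0459% in wild type and 0.594 ± 0.0347% and 0.822 ± 0.0861% in KO (SD, n = 3 each), so PIR+ KO lay above PIR+ wt and PIR- KO below PIR- wt on average, and the PIR- libraries of the 2 genotypes overlapped. The 41 genes of a DNA replication list differed less between subsets, at 0.876% in PIR+ wt, 1.07% in PIR- wt, 0.866% in PIR+ KO and 0.956% in PIR- KO on average. Their shares did not overlap between subsets either. They were 0.839% to 0.910% in PIR+ wt, 1.05% to 1.11% in PIR- wt, 0.812% to 0.909% in PIR+ KO and 0.922% to 0.987% in PIR- KO. The summed values of the 48 genes were 1123.5 to 1202.1 in PIR+ wt and 1335.6 to 1779.9 in PIR- wt. In KO they overlapped, at 1333.8 to 1576.4 in PIR+ and 1344 to 2048.3 in PIR-. Mean library sums were 227760 in PIR+ wt, 168083 in PIR- wt, 246372 in PIR+ KO and 193537 in PIR- KO. In sorted tubes, fewer dividing cells, less mitotic RNA per cell and a larger total of other RNA in PIR+ cells cannot be told apart.

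**Figure D1:**
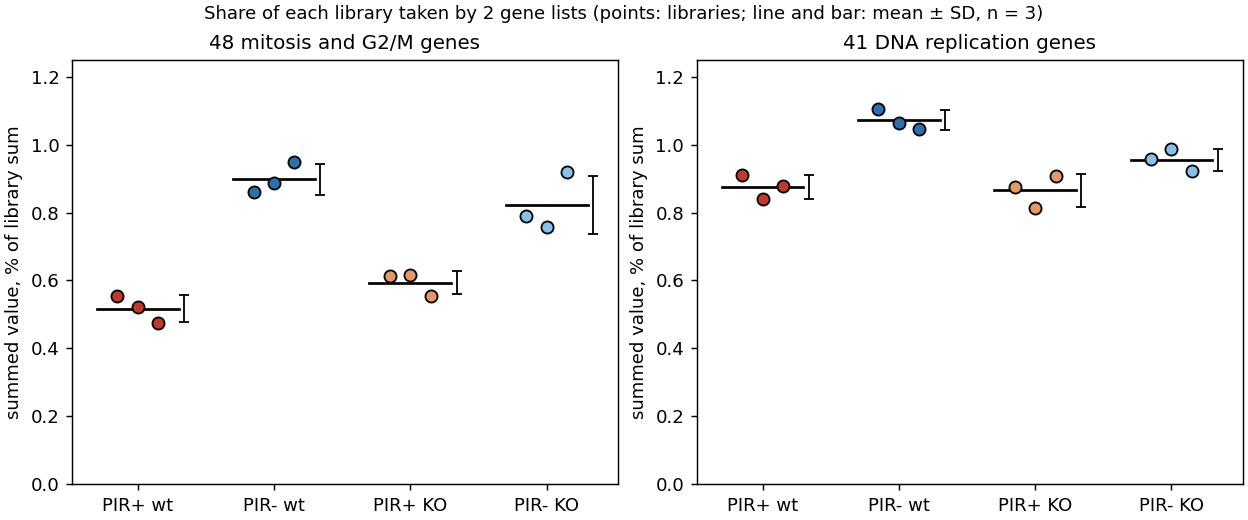
Share of each library's summed value, in percent (vertical axes), taken by the 48 mitotic genes (left) and 41 DNA replication genes (right), by group (horizontal axes); points are libraries, lines the means and bars the SD of 3 libraries. The 3 PIR+ wt libraries sit between 0.474% and 0.553%, all below the PIR- wt libraries at 0.860% to 0.949%, the KO subsets are separated in the same order, and the replication genes lie closer together.

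In wild type, the mitotic genes that were called were, but for Kif23, lower in PIR+ than in PIR- cells. On the deposited scale 12 of the 47 tested were called lower and 1, Kif23, higher, where 3.72% of all tested genes were called lower and 40.6% higher. After scaling 33 were called lower and none higher, against 11% and 11.5% of all genes, and the 12 were among the 33. The median log2 difference of the 47 was -0.29 on the deposited scale, where that of all tested genes was 0.51, and -0.77 after scaling, where that of all tested genes was 0.02. On the scaled values 45 of the 47 lay below 0, and the PIR+ libraries all lay below the PIR- libraries for 34 of the 47, as they did for 16.9% of all tested genes.

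The wild-type counts depended on the libraries used. With the 5 globin-rich libraries left out, PIR- wt kept replicate 1 alone, assumed to vary like the other groups, and 1 gene (Nusap1) was called lower on the deposited scale and 17 after scaling, where 1.89% and 6.76% of all genes tested then were called lower. With only the 6 label-matched libraries, Nusap1 and Ube2c were called lower on the deposited scale and 14 genes after scaling, where 2.35% and 6.2% of all genes were. Leaving out PIR- wt replicate 3 alone brought the deposited count of 13 to 7, where 2.92% of all genes were then lower and 43.3% higher.

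**Figure D2:**
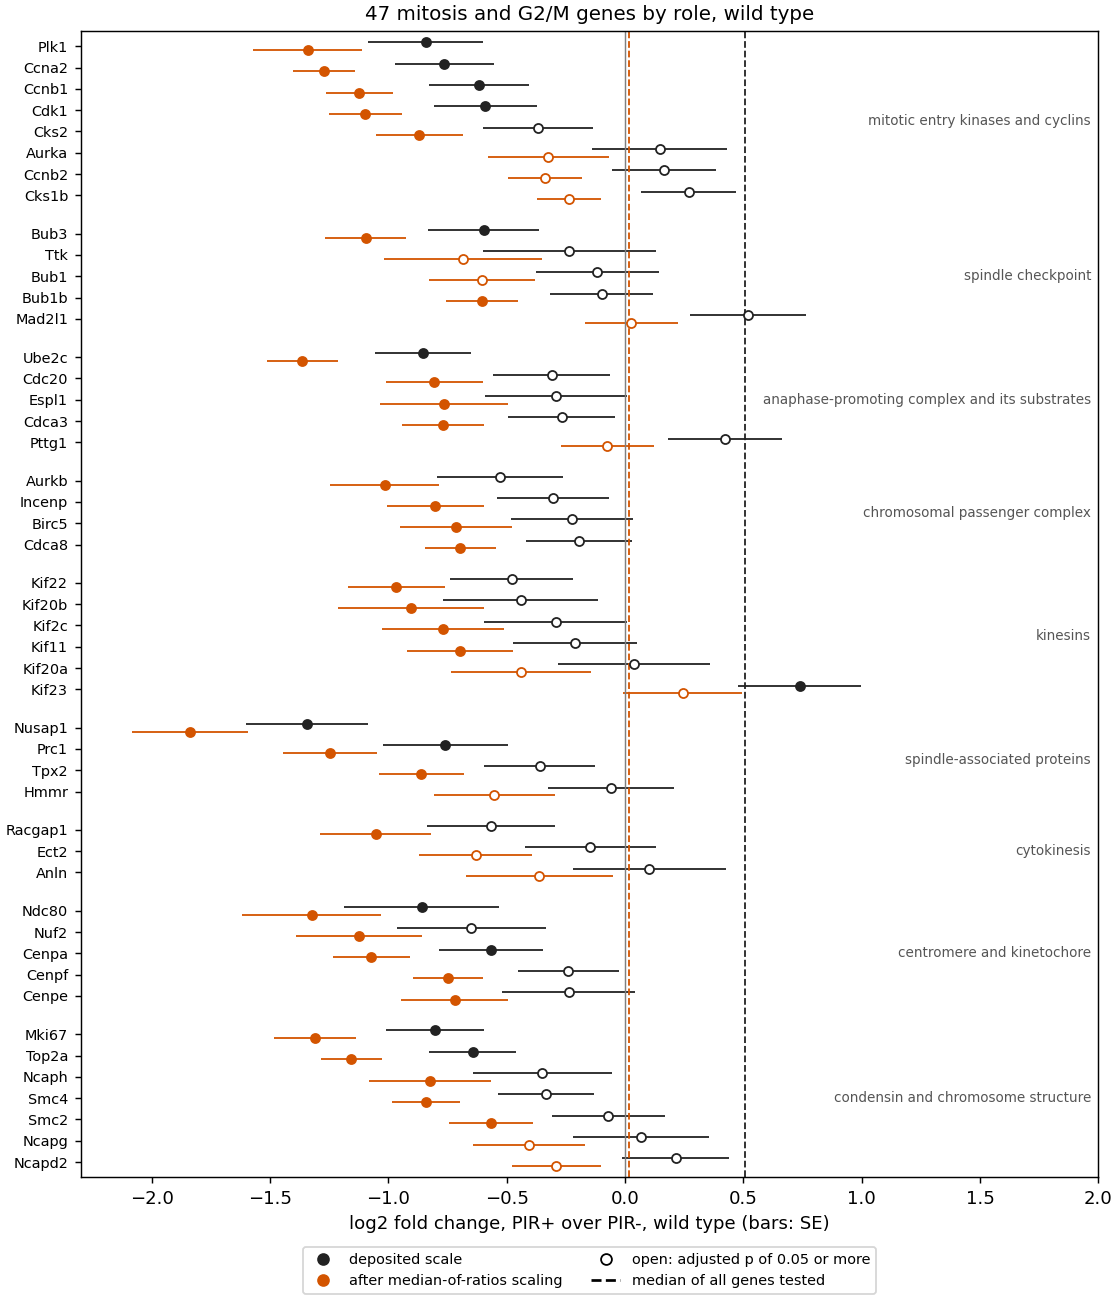
Log2 difference between PIR+ and PIR- wild-type libraries (horizontal axis) for each tested mitotic gene, grouped by role (vertical axis), on the deposited values (black) and the scaled values (orange), with SE bars; filled points are called, and dashed lines are the medians of all tested genes. Nusap1 lies lowest at -1.34 (deposited) and -1.84 (scaled), and Kif23 alone is called above 0, on the deposited scale.

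Of the 8 tested genes that drive entry into mitosis, 4 were called lower in PIR+ wild type on both scales, Plk1, Ccna2, Ccnb1 and Cdk1, and Cks2 after scaling as well. Plk1, the polo-like kinase of mitotic entry and spindle assembly (chr7:122159439-122169873, GRCm38), was 26.7, 27.0 and 14.9 in PIR+ wt and 26.5, 41 and 60.5 in PIR- wt. Its log2 difference was -0.84 ± 0.24 (adjusted p = 0.00365) and -1.34 ± 0.23 after scaling (adjusted p = 5.74e-05). The groups overlapped on the deposited values, through PIR- replicate 1. The difference was 0.018 without the globin-rich libraries or with only the label-matched ones, and the call was also lost without PIR- wt replicate 3 or PIR+ wt replicate 3.

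Ccna2, cyclin A2, which partners Cdk2 in S phase and Cdk1 in G2, was 29.2, 38.8 and 35.9 in PIR+ wt and 52.0, 58.9 and 67.5 in PIR- wt. Every PIR- library was above every PIR+ library, a log2 difference of -0.76 ± 0.21 (adjusted p = 0.00229; scaled -1.27, adjusted p = 1.57e-08). The deposited difference was -0.61 and no longer called without the globin-rich libraries (adjusted p = 0.208) or with only the label-matched ones (adjusted p = 0.1). Ccnb1, cyclin B1, was nearly the same in the PIR+ wt libraries, at 33.0, 34.2 and 35.3, and was 50.9, 48.8 and 59.7 in PIR- wt (-0.62 ± 0.21, adjusted p = 0.0145). Cdk1, the kinase these cyclins activate, was 28.6, 38.8 and 35.3 against 44.0, 43.4 and 72.2 (-0.59 ± 0.22, adjusted p = 0.0221). Neither overlapped between subsets, and the deposited call of Ccnb1 was lost without PIR- wt replicate 3, without the globin-rich libraries (adjusted p = 0.228) and with only the label-matched ones (adjusted p = 0.115). The call of Cdk1 was also lost under both choices of libraries. The second B-type cyclin, Ccnb2, was 37.4, 35.5 and 35.9 in PIR+ and 29.2, 30.2 and 38.0 in PIR- wt, with an overlap. It was called on neither scale (deposited 0.16 ± 0.22, adjusted p = 0.531, and scaled -0.34 ± 0.16, adjusted p = 0.129). After scaling its PIR+ wt libraries (28.5 to 36.3) all lay below its PIR- wt libraries (39.6 to 42.9). Cks1b, a small Cdk-binding protein, was 51.1 to 52.5 in PIR+ wt and 39.2 to 46.6 in PIR- wt and was not called either (deposited 0.27 ± 0.20, adjusted p = 0.264; scaled -0.24 ± 0.13, adjusted p = 0.229). For Cks1b the groups separated in opposite directions on the 2 scales. Aurka, the centrosomal Aurora kinase, overlapped between subsets, at 9.5 to 13.2 and 7.7 to 13.2.

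Of the 5 spindle checkpoint genes, 1 was called lower in PIR+ wild type on the deposited scale and 2 after scaling. Bub3, which binds kinetochores with Bub1 and BubR1, was 17.1, 22.4 and 20.3 in PIR+ wt and 28.1, 30.2 and 33.4 in PIR- wt (-0.60 ± 0.23, adjusted p = 0.0321; scaled -1.10, adjusted p = 1.56e-05), with no overlap, and its deposited call was lost under both choices of libraries. Bub1b, which encodes BubR1, was called after scaling (-0.60 ± 0.15, adjusted p = 0.00407). Its deposited values overlapped, at 31.6 to 41.4 in PIR+ and 38.2 to 39.6 in PIR- wt. Mad2l1, the Mad2 subunit of the checkpoint complex, lay on the other side, at 25.4, 21 and 27.1 in PIR+ and 17.0, 18.6 and 14.7 in PIR- wt. Its groups did not overlap on the deposited values, but it was not called (0.52 ± 0.24, adjusted p = 0.0733), and after scaling its difference was 0.03 ± 0.20 (adjusted p = 0.942).

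Ube2c, the ubiquitin-conjugating enzyme that works with the anaphase-promoting complex (chr2:164769898-164778822, GRCm38), was 50.2, 40.1 and 62.1 in PIR+ wt and 73.9, 92.9 and 110.6 in PIR- wt. All PIR- wt libraries were above all PIR+ wt libraries, and the log2 difference was -0.85 ± 0.20 (adjusted p = 0.000441) and -1.36 ± 0.15 after scaling (adjusted p = 5.19e-08). It was -0.71 without the globin-rich libraries and with only the label-matched ones, from the same wild-type libraries. The call was lost in the first run and kept in the second. These runs differ only in PIR+ KO replicate 2, so the second is no separate check of this difference. After scaling 4 of the 5 genes of this role were called lower, the others being Cdc20, the complex's activator (-0.81), Cdca3 (-0.77) and Espl1, which encodes separase (-0.77). Pttg1, the securin that holds separase inactive, was the exception, at 24.3 to 29.1 in PIR+ and 15.5 to 24.8 in PIR- wt (scaled -0.07 ± 0.20, adjusted p = 0.833). All 4 chromosomal passenger genes, Aurkb, Incenp, Birc5 and Cdca8, were called lower after scaling, from -1.02 for Aurkb to -0.70 for Cdca8, and none on the deposited scale. Cdca8, which encodes borealin, was 24.1, 33.5 and 30.5 in PIR+ and 33.9, 30.2 and 36.5 in PIR- wt, so its deposited values overlapped.

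The kinesins held the gene that was higher in PIR+ cells. Kif23, the MKLP1 motor of the central spindle (chr9:61915905-61946774, GRCm38), was 16.5, 40.1 and 39.3 in PIR+ wt and 19.1, 15.5 and 17.8 in PIR- wt. Its log2 difference was 0.74 ± 0.26 (adjusted p = 0.0169), but 0.24 ± 0.25 after scaling (adjusted p = 0.547). PIR+ replicate 1 lay among the PIR- libraries, and the call was lost without PIR+ wt replicate 2, PIR+ wt replicate 3 or PIR- wt replicate 2. It was also lost with no filter. The deposited difference was 0.42 and no longer called without the globin-rich libraries or with only the label-matched ones. Of the other kinesins, Kif22, Kif20b, Kif2c and Kif11 were called lower after scaling (-0.97 to -0.70) and Kif20a was not (-0.44 ± 0.29, adjusted p = 0.319). Racgap1, whose product is the partner of Kif23 in centralspindlin, was called lower in PIR+ wild type after scaling (-1.05 ± 0.24, adjusted p = 0.0013). Its deposited values were 18.4, 10.5 and 14.9 in PIR+ and 15.4, 23.2 and 27.9 in PIR- wt, with an overlap at PIR- replicate 1. The other cytokinesis genes, Anln and Ect2, were not called on either scale.

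Nusap1, a microtubule-binding protein of the spindle (chr2:119618298-119651244, GRCm38), had the largest difference of the 47 tested genes. It was 17.8, 9.9 and 12.9 in PIR+ wt and 30.7, 33.3 and 41.9 in PIR- wt, a log2 difference of -1.34 ± 0.26 (adjusted p = 1.44e-05) and -1.84 ± 0.24 after scaling (adjusted p = 1.3e-06). The lowest PIR- library was above the highest PIR+ library. This call was kept under every alternative run, with adjusted p up to 0.0325 without the globin-rich libraries. Prc1, which bundles antiparallel microtubules of the central spindle, was 10.8, 9.9 and 12.9 in PIR+ and 18.6, 17.8 and 22.5 in PIR- wt (-0.76 ± 0.26, adjusted p = 0.015), without overlap, and its call was lost without PIR- wt replicate 3 or PIR+ wt replicate 2, without the globin-rich libraries (adjusted p = 0.178) and with only the label-matched ones (adjusted p = 0.109). Tpx2, the activator of Aurora A on the spindle, was 21 to 27.9 in PIR+ and 26.0 to 45 in PIR- wt and was called after scaling (-0.86 ± 0.18, adjusted p = 0.000575). Hmmr was not called on either scale.

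All 5 centromere and kinetochore genes were called lower in PIR+ wild type after scaling, and 2 of them on the deposited scale. Ndc80, the microtubule-binding arm of the kinetochore, was 5.1, 5.3 and 6.4 in PIR+ and 11.1, 10.8 and 10.9 in PIR- wt (-0.86 ± 0.33, adjusted p = 0.0277; scaled -1.32, adjusted p = 0.00118). These are low values with little spread within a group, and the deposited call was lost when either of PIR+ wt replicates 1 and 2 or PIR- wt replicates 1 and 2 was left out, or with no filter. Nuf2, its partner in the same complex, was 5.1, 7.9 and 10.2 against 10.1, 13.9 and 13.2 (-0.65 ± 0.31, adjusted p = 0.081; scaled -1.12, adjusted p = 0.00217). Nuf2 passed the filter on low values only through the PIR- wt libraries, where it was high, so its difference is given as a description. Cenpa, the histone H3 variant that marks centromeres, was 39.3, 32.9 and 40.0 against 47.7, 46.5 and 77.6, without overlap (-0.57 ± 0.22, adjusted p = 0.0296). Under both choices of libraries the deposited call of Cenpa was lost and Ndc80 no longer passed the filter on low values. Cenpf, a large kinetochore and nuclear matrix protein, spread more, at 43.1, 40.1 and 68.6 in PIR+ and 46.3, 57.1 and 74.6 in PIR- wt, and was called after scaling (-0.75 ± 0.15, adjusted p = 0.00037).

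Top2a and Mki67 were called on both scales among the 7 genes of chromosome structure, and Smc2, Smc4 and Ncaph after scaling. Top2a, topoisomerase II alpha (chr11:98992943-99024189, GRCm38), was 101.5, 103.9 and 86.8 in PIR+ wt and 145.8, 145.6 and 166.1 in PIR- wt. The groups did not overlap, with a log2 difference of -0.64 ± 0.18 (adjusted p = 0.00351) and -1.16 ± 0.13 after scaling (adjusted p = 7.46e-08). The deposited difference was -0.50 and no longer called without the globin-rich libraries (adjusted p = 0.249) or with only the label-matched ones (adjusted p = 0.115). Mki67, which encodes the proliferation antigen Ki-67 (chr7:135689784-135716361, GRCm38), was 41.9, 55.2 and 30.5 in PIR+ wt and 62.6, 80.6 and 76.8 in PIR- wt (-0.80 ± 0.21, adjusted p = 0.00112; scaled -1.31, adjusted p = 1.3e-06). No PIR+ library reached the lowest PIR- library, but the deposited difference was -0.37 and no longer called without the globin-rich libraries (adjusted p = 0.436) or with only the label-matched ones (adjusted p = 0.305). The condensin I subunits Ncapd2 and Ncapg were not called on either scale (scaled -0.29 and -0.41).

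**Figure D3:**
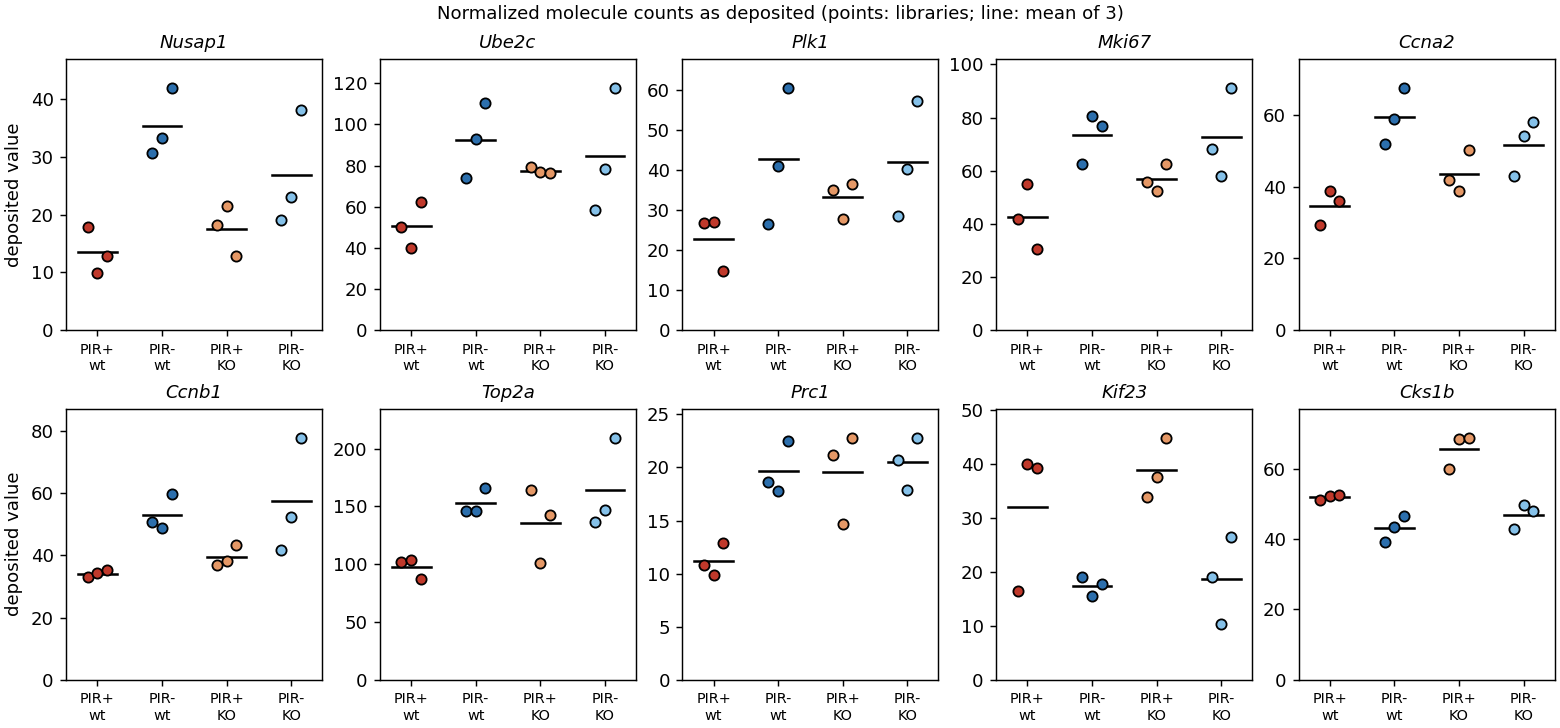
Deposited values (vertical axes, normalized molecule counts, each starting at 0) of 10 genes the results turn on, by group (horizontal axes), with points for libraries and lines for group means. Nusap1, Top2a and Mki67 sit lower in PIR+ than in PIR- wild type in every library, and Kif23 sits higher in PIR+ KO than in PIR- KO in every library.

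In KO cells the same direction appeared after scaling, with fewer calls. On the deposited scale no gene was called lower and Kif23 alone was called higher, where 2.97% of all tested genes were lower and 22.5% higher. After scaling 19 were called lower and none higher, against 7.51% and 8.12% of all genes. The median log2 difference was -0.11 on the deposited scale (0.39 over all genes) and -0.50 after scaling (0.01 over all genes), with 45 of 47 below 0 on the scaled values. The 2 comparisons share no library but come from the same fit, with a shared estimate of the spread. After scaling 18 genes were called lower in both, which is 54.5% of the 33 in wild type and 94.7% of the 19 in KO. The matching share over all tested genes is not given here. The gene called in KO alone was Ccnb2, whose difference between the genotypes was not called. With only the label-matched libraries 11 genes were called lower after scaling, where 4.7% of all genes were, and 10 without PIR+ KO replicate 3 or without PIR- KO replicate 3. Those last 2 runs called 6.29% and 5.53% of all genes lower. On the deposited scale the count of 1 became 3 without PIR- KO replicate 1, where 3% of all genes were lower and 12.9% higher. It became 2 without PIR+ KO replicate 1 (2.87% and 17.5% of all genes) or PIR- wt replicate 3 (3.1% and 24.8%).

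Among the genes called in KO, Racgap1 had the largest scaled difference, -1.04 ± 0.24 (adjusted p = 0.00192). Its deposited values were 17.0, 10.8 and 15.2 in PIR+ KO and 18, 20.2 and 33.1 in PIR- KO, without overlap. Ccnb1 was 37.0, 38.2 and 43.3 in PIR+ KO and 41.8, 52.5 and 77.9 in PIR- KO (scaled -0.88 ± 0.14, adjusted p = 3.53e-05), and the groups overlapped on the deposited values only. Nusap1 was 18.2, 21.5 and 12.9 against 19.1, 23.1 and 38.2 (scaled -0.93 ± 0.24, adjusted p = 0.00766; deposited -0.55 ± 0.26, adjusted p = 0.0984). PIR- KO replicate 3 was the highest library of its group for each of these 3 genes, and it also held the highest share of the 48 genes in that group.

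Bub1b was 30.3, 34.8 and 37.3 in PIR+ KO and 40.2, 38.6 and 61.0 in PIR- KO, without overlap (scaled -0.80 ± 0.15, adjusted p = 0.000279). Incenp, the scaffold of the chromosomal passenger complex, was 29.1, 33.8 and 26.6 against 31.2, 35.2 and 56.6 (scaled -0.79 ± 0.20, adjusted p = 0.00625). Tpx2 was 29.1, 27.9 and 31.9 against 27.5, 40.9 and 50 (scaled -0.75, adjusted p = 0.00306). Only the first of these 3 was separated on the deposited scale. Cdk1 was 40.6, 41.6 and 66.9 against 53.5, 55.4 and 79.4 (scaled -0.74, adjusted p = 0.000784), and its deposited difference with only the label-matched libraries was 0.012. Mki67 was 55.7, 52.4 and 62.4 against 68.3, 58.2 and 91.1 (scaled -0.72, adjusted p = 0.0037), and Plk1 was 35.1, 27.9 and 36.5 against 28.6, 40.4 and 57.3 (scaled -0.68, adjusted p = 0.0437). Kif22, a chromosome arm motor, was 20.0, 16.2 and 19.0 against 20.1, 20.8 and 27.2 (scaled -0.66, adjusted p = 0.0256) and was the one of these 4 with no deposited overlap.

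Kif23 was again higher in PIR+ cells in KO. It was 33.9, 37.7 and 44.9 in PIR+ KO and 19.1, 10.4 and 26.5 in PIR- KO, and the libraries did not overlap on either scale. The log2 difference was 1.10 ± 0.26 (adjusted p = 0.000662) and 0.71 ± 0.25 after scaling (adjusted p = 0.0545). Averaged over both genotypes, Kif23 was called higher on both scales (0.92, adjusted p = 1.81e-05; scaled 0.48, adjusted p = 0.0438), and it was the only one of the 47 to be so. With replicate number added to the limma fit as a block, its scaled difference was not called (adjusted p = 0.0513). Without the globin-rich libraries no gene was called higher after scaling.

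Averaged over genotypes, 11 genes were called lower in PIR+ cells and 2 higher on the deposited scale, where 4.58% and 55% of all tested genes were called. After scaling 35 were lower and 1 higher, against 14.2% and 15.4%, and the 11 were among the 35. The 11 were Nusap1, Racgap1, Plk1, Mki67, Ccnb1, Ccna2, Cdk1, Ube2c, Top2a, Prc1 and Bub3, with deposited differences from -0.95 to -0.37. Cks1b, called higher on the deposited scale (0.37, adjusted p = 0.0201), was at -0.08 after scaling. Without the globin-rich libraries 4 genes were lower and 1 higher on the deposited scale, and 24 were lower after scaling, where 3.03%, 29.3% and 11.2% of all genes were. Of the 13 deposited calls, those of Racgap1, Plk1, Mki67, Ccna2, Cdk1 and Cks1b were among the ones lost under both choices of libraries, and those of Nusap1, Ccnb1, Ube2c, Top2a and Kif23 were kept under both.

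KO was compared with wild type within each subset. Named stage was not balanced in these comparisons. In PIR+ and in PIR- cells alike, most wild-type libraries are named E12.5 and most KO libraries E14.5. The part of named stage in the differences between KO and wild type was not tested. In PIR+ cells no mitotic gene was called by limma on either scale, where 0.903% of all tested genes were called (deposited) and 1.01% (scaled). At an unadjusted p under 0.05 there were 13 on the deposited scale, where 6.89% of all genes were, and 8 after scaling, where 9.58% were. The differences lay mostly above 0: 41 of 47 on the deposited scale, with a median of 0.36 against 0.09 over all genes, and 35 of 47 after scaling, with a median of 0.26 against 0.00. All KO libraries lay above all wild-type libraries for 16 of the 47 on the deposited values, as for 8.04% of all genes, and for 10 after scaling, as for 8.08% of all genes. One gene, Kif20a, lay below without overlap on either scale.

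The 5 genes with the smallest unadjusted p in that comparison on the deposited scale show both directions. Ube2c was 79.4, 76.8 and 76.5 in PIR+ KO against 50.2, 40.1 and 62.1 in PIR+ wt (0.62 ± 0.20, adjusted p = 0.173; scaled 0.52, adjusted p = 0.0948). Every KO library was above every wild-type library. Prc1 was 21.2, 14.7 and 22.8 against 10.8, 9.9 and 12.9, also without overlap (0.74 ± 0.26, adjusted p = 0.281), and Aurka was 22.4, 19.6 and 14.4 against 10.8, 13.2 and 9.5 (0.69 ± 0.29, adjusted p = 0.509). Kif20a, a kinesin of the cleavage furrow also known as MKLP2, was the one gene lower in KO without overlap, at 6.1, 7.3 and 6.1 against 10.2, 15.1 and 12.2 (-0.84 ± 0.32, adjusted p = 0.413). Top2a was 164.2, 101.4 and 142.2 against 101.5, 103.9 and 86.8, so its groups overlapped (0.45 ± 0.18, adjusted p = 0.494). These 5 were chosen for this comparison after their values were seen.

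In PIR- cells no mitotic gene was called on the deposited scale, where 1.3% of all genes were, and 1 after scaling, where 1.7% were. At an unadjusted p under 0.05 there were 2 on the deposited scale, where 13.8% of all genes were. The gene called was Cenpf, lower in KO (scaled -0.62 ± 0.15, adjusted p = 0.024). Its deposited values were 39.7, 41.7 and 50.4 in PIR- KO and 46.3, 57.1 and 74.6 in PIR- wt, and they overlapped at PIR- wt replicate 1. The deposited difference was -0.41 ± 0.21 (adjusted p = 0.374), and -0.014 without the globin-rich libraries. The scaled call was also lost without any one of the 3 PIR- KO libraries or PIR- wt replicates 2 and 3. The medians of the 47 were 0.09 on the deposited scale, against 0.20 over all genes, and -0.11 after scaling, against 0.01 over all genes. Aurka was 12.7, 19.0 and 23.5 in PIR- KO and 9.5, 7.7 and 13.2 in PIR- wt and was not called (0.79 ± 0.29, adjusted p = 0.186). The lowest KO library lay below the highest wild-type library, and the gene was chosen after its values were seen.

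The difference between the subset effects of the 2 genotypes was tested as an interaction. No mitotic gene was called on the deposited scale, where 0.572% of all genes were, and 1 was called after scaling, where 0.749% were. At an unadjusted p under 0.05 there were 2 on the deposited scale, where 5.5% of all genes were, and 12 after scaling. The share of all genes at that threshold after scaling is not given here. The gene called was Ube2c, for which the PIR+ to PIR- difference was -1.36 in wild type and -0.47 in KO after scaling, an interaction of 0.90 ± 0.21 (adjusted p = 0.0378). The PIR- KO libraries, at 58.6, 78.2 and 117.6, took in the whole ranges of PIR+ KO and of PIR- wt on the deposited values. After scaling they were 72.7 to 110.7, above all PIR+ KO libraries (53.7 to 71.4) and overlapping PIR- wt (100.3 to 124.8). On the deposited scale the interaction was 0.79 ± 0.29 (adjusted p = 0.421), and without the globin-rich libraries 0.39. The scaled call was lost when either of replicates 1 and 2 of PIR+ KO or PIR- KO, replicate 2 of PIR+ wt, or replicate 2 or 3 of PIR- wt was left out. The next lowest p belonged to Ccna2 (scaled 0.64 ± 0.19, adjusted p = 0.148). The median interaction of the 47 was 0.22 on the deposited scale, against -0.13 over all genes. After scaling it was 0.32, against -0.02 over all genes, with 39 of 47 above 0.

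**Figure D4:**
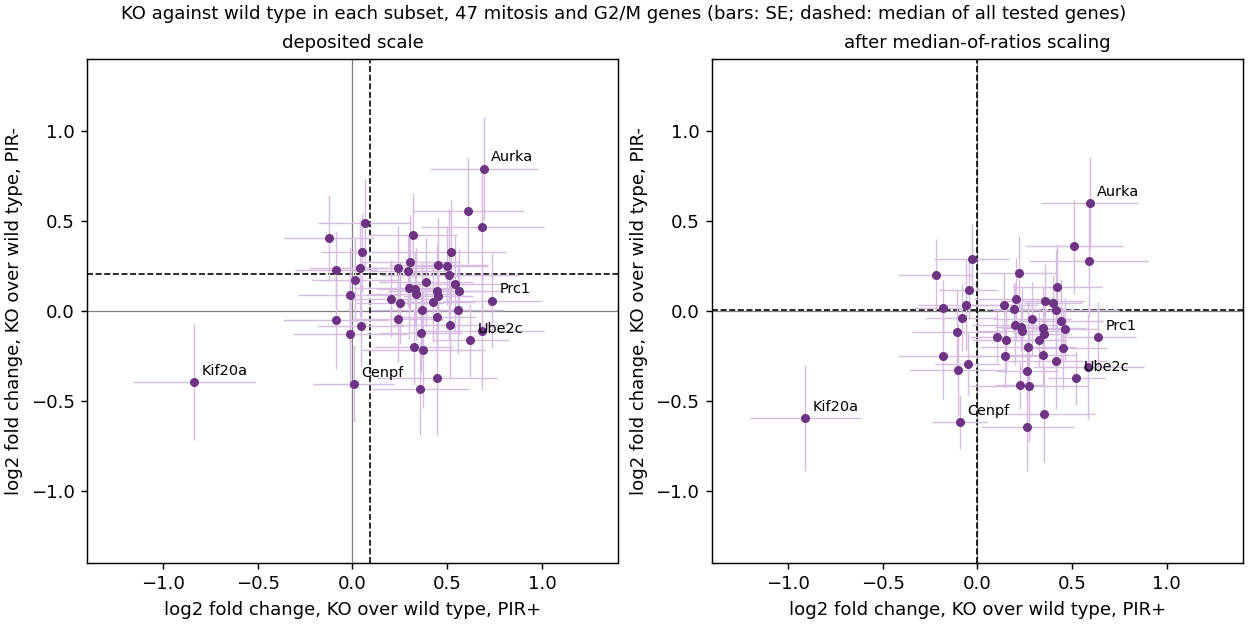
Log2 difference between KO and wild type in PIR+ cells (horizontal axis) and in PIR- cells (vertical axis) for the 47 tested mitotic genes, on the deposited values (left) and after scaling (right), with 5 genes named; each point is a gene with SE bars, and dashed lines are the medians of all tested genes. On the left 41 of 47 points lie right of 0, with Prc1, Aurka and Ube2c at the right and Kif20a at the left, and Cenpf lies below 0 in PIR- cells.

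Other genes of the same pathways were read from lists that do not overlap the 48. Of 79 other mitotic genes, 47 were tested. In wild type 7 were lower in PIR+ and 2 higher as deposited, and 25 lower and 0 higher after scaling, with medians of -0.13 and -0.62. Of all genes 3.72% were lower and 40.6% higher as deposited and 11% and 11.5% after scaling, with medians of 0.51 and 0.02. In KO 2 were lower on the deposited scale and 10 after scaling, where 2.97% and 7.51% of all genes were. Cdc25b, the phosphatase that switches on Cdk1, passed the filter on low values only through the PIR- groups, where it was high, so its difference is given as a description, at -1.37 ± 0.38 in wild type (adjusted p = 0.00233) and -2.33 ± 0.38 in KO (adjusted p = 3.9e-07), where it was 1.77 ± 0.252 in PIR+ and 13.2 ± 3.84 in PIR- libraries (SD, n = 3 each). Spc25, a kinetochore partner of Ndc80 and Nuf2, was 10.1 ± 0.173 and 26.1 ± 6.29 in wild type (-1.26 ± 0.27, adjusted p = 7.4e-05). In KO Spc25 was 20.3 ± 4.71 in PIR+ and 20.5 ± 7.75 in PIR-, and its interaction was called after scaling (1.39 ± 0.31, adjusted p = 0.0236). The interaction of Hmgb2 was called as well (scaled 0.61 ± 0.13, adjusted p = 0.0197), where 0.749% of all genes were. Hmgb2 was also lower in PIR- KO than in PIR- wt after scaling (-0.45 ± 0.09, adjusted p = 0.00608). So was Pola2 of the DNA replication list (-0.40 ± 0.07, adjusted p = 0.0016), where 1.7% of all genes were called in either direction. Zwint, a kinetochore scaffold protein, was on the other side in wild type, at 8.97 ± 1.57 in PIR+ and 3.20 ± 0.954 in PIR- (1.26 ± 0.39, adjusted p = 0.00658), on the deposited scale only. Its group means were all below the filter value of 10, at 8.63 in PIR+ KO and 5.77 in PIR- KO, so this difference is also given as a description.

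Of 13 tested subunits and partners of the anaphase-promoting complex, 2 were higher in PIR+ wild type on the deposited scale and 2 lower after scaling, where 40.6% and 11% of all genes were. Anapc11, its RING subunit, was 35.9 ± 2.27 in PIR+ and 18.9 ± 5.11 in PIR- wt (0.93 ± 0.24, adjusted p = 0.0016) and was called higher in KO on both scales (0.96 and 0.58). Fzr1, the activator Cdh1 of late mitosis and G1, was called lower in wild type after scaling (-1.13 ± 0.26, adjusted p = 0.00155). Of 9 tested regulators of G2/M transcription, Rbl1, the p107 pocket protein (scaled -1.03, adjusted p = 0.00551), and Foxm1, a factor that works with MuvB (scaled -0.80, adjusted p = 0.045), were lower in PIR+ wild type after scaling. On the deposited scale Nfya, a subunit of NF-Y, was the one called, and it was higher (0.72, adjusted p = 0.00657). Of 38 tested DNA replication genes, 11 were higher and 1 lower on the deposited scale in wild type, and 0 and 11 after scaling, with medians of 0.23 and -0.25. Of all genes 40.6% were higher and 3.72% lower on the deposited scale and 11.5% and 11% after scaling, with medians of 0.51 and 0.02. Cdt1, the licensing factor of S phase, was higher on the deposited scale (0.88, adjusted p = 0.00203), and Rrm2, a ribonucleotide reductase subunit, was lower on both (-0.62, adjusted p = 0.00959; scaled -1.13, adjusted p = 1.51e-07).

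Markers of other cell types moved with the subsets, and their part in these results was not tested. Summed B lineage markers (16 genes) were 55.3 to 91.4 in the PIR+ libraries of both genotypes and 952.1 to 1260.4 in PIR- wt and 827.8 to 1291.6 in PIR- KO. Dntt was listed at 0 in every group, and Pax5 was 1.1 or less in every library. Bank1, of the same list, went the other way in both genotypes. It was 9.5 to 9.9 in PIR+ wt, 2.3 to 5.4 in PIR- wt, 15.7 to 19.4 in PIR+ KO and 3.2 to 13.2 in PIR- KO. Summed neutrophil, monocyte and macrophage markers (16 genes) were 97.6 to 132.8 in PIR+ wt, 9.1 to 23.4 in PIR- wt, 86.2 to 147.4 in PIR+ KO and 30.7 to 60.1 in PIR- KO, with Ctsg, S100a9 and Ngp at 0 in every group. Erythroid markers (19 genes) ran from 79.1 to 957.3 in PIR+ wt, 208.9 to 1664.2 in PIR- wt, 85.6 to 1900.9 in PIR+ KO and 80.5 to 1440.5 in PIR- KO, and so overlapped between all groups. Hepatocyte markers (12 genes) were 9.3 to 66.2 over all libraries.

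For 2 of these comparisons the authors' deposited table gives p-values, without saying whether they are adjusted. In the authors' deposited table, p was under 0.05 for 31 of the 48 genes (64.6%) in PIR+ against PIR- in wild type, where 12.6% of the 9134 genes with a value were, and the smallest was 5.61e-13 for Top2a. For KO against wild type in PIR+ the authors' deposited table has 3 of the 48 (6.25%) under 0.05, where 3.08% of 10544 genes were: Ube2c at 0.00587, Top2a at 0.0288 and Kif20a at 0.0338. These tests use the same libraries as the fits above and are no second experiment. Of the 48 genes, 9 overlap another protein-coding gene in the annotation, among them Nusap1, Ube2c, Prc1, Bub3, Ccna2 and Kif20a, and whether the counting used strand is not given in the sources used here.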

How the data were processed

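RNA of 12 libraries of 100 sorted cells was measured by oligo-dT priming with molecular barcodes, template switching and PCR, per the labels' protocols. The deposited values are a signal: molecule counts normalized by the authors, with 1 decimal and differing library sums (155374 to 284648), which limit the precision of genes with low values. The submitters' processing notes name TopHat2, DESeq2 and mm10. The counting tool is not given in the sources used here, nor are versions. The authors also deposited p-values for 2 comparisons.

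From these values, limma 3.58.1 (R 4.3.3) was fitted with a trended prior to log2(value + 1) with 4 group means, for genes with at least 10 in at least 3 libraries, and p-values were adjusted by Benjamini-Hochberg over 4542 genes within each of 6 comparisons. The added 1 understates changes of low genes. The fit was repeated after median-of-ratios scaling. It was also run on simulated data, and the outcome of that run is not given here. The filter used the deposited values on both scales. Positions come from GENCODE M21 (GRCm38) and promoters from RefSeq. Figures used matplotlib 3.10.9 and Python 3.11.15.

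The 48 genes, their roles and the other lists were chosen with earlier results of these data known. Genes were named by a rule: per comparison, up to 10 called genes per direction with the largest difference on the deposited or the scaled values, the gene with the highest mean in each role, genes that did not pass the filter, and up to 3 called genes per other list. Alternatives were other scalings, other added constants (0.1 and 5), no filter, a replicate block, and leaving out libraries.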

Additional observations from a re-analysis of the deposited data

Results flagged for a closer look

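Ube2c was called for a difference between genotypes in its subset effect after scaling, and not on the deposited scale. After median-of-ratios scaling its PIR+ to PIR- log2 difference was -1.36 in wild type and -0.47 in KO, an interaction of 0.90 ± 0.21 (limma, adjusted p = 0.0378). PIR+ was lower than PIR- on average in both genotypes after scaling, so the interaction is one of size. On the deposited scale it was 0.79 (adjusted p = 0.421). The scaled call was lost without the globin-rich libraries and when any of several single libraries, listed above, was left out. Groups of 3 libraries were not searched for a library that stands apart.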

How the results depend on the processing

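Counts of mitotic genes called are given first for the deposited scale. Shares over all tested genes are given above for the deposited and scaled fits and for some runs with fewer libraries. They are not given for the other settings of this section, so those counts are a description. The shares changed too. Averaged over genotypes on the deposited scale, 55% of all genes were called higher, and 45.3% without PIR- KO replicate 1. For PIR+ against PIR- in wild type (13), they were 33 after median-of-ratios scaling, with or without a replicate block, 30 with equal library sums, 8 with no filter, 1 without the globin-rich libraries and 2 with only the 6 label-matched libraries. For that comparison in KO (1), they were 19, 13 with equal sums, 2 with an added constant of 5, 5 with a replicate block, 18 with the block after scaling, and 2 under either choice of libraries. Averaged over genotypes (13), they were 36 after scaling with or without the block, 34 with equal sums and 5 under either choice of libraries. For the KO effect the block gave 1 call in PIR+ (0 without). In PIR- cells and for the interaction (0 each), scaling, equal sums and the block after scaling gave 1 call each.

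After scaling, the counts without the globin-rich libraries were 17 (33) for the wild-type subsets, and 0 for the KO effect in PIR- and for the interaction (1 each). With only the label-matched libraries they were 14, 11 in KO (19), 22 averaged (36), and 0 and 0 for the last pair.

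Leaving out each library in turn gave 7 to 13 calls in wild type, 1 to 3 in KO, 11 to 16 averaged and 0 to 0 in the other 3 comparisons, and after scaling 26 to 35, 10 to 20 and 33 to 38, 0 to 1 for the KO effect in PIR- and for the interaction, and 0 to 0 for the KO effect in PIR+.

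Among single genes, the wild-type difference of Plk1 turned to 0.018 without the globin-rich libraries and with only the label-matched ones, and the subset difference of Cdk1 in KO to 0.012 with only the label-matched ones. The averaged difference of Cks1b turned to -0.078 after scaling, with or without the replicate block, and to -0.011 with equal sums. The averaged difference of Kif23 was not called with the replicate block after scaling (adjusted p = 0.0513). The cause was not tested.

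Replicate numbers are shared by the groups, but nothing in the labels ties same-numbered libraries. Deviations from the group means correlated at -0.106 to 0.162 for same-numbered pairs, and 4 of 12 libraries correlated best with their own number. With 100 cells to a tube, low values such as those of Ndc80 and Nek2 rest on few molecules.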
